A study of Mus musculus with 36 samples.

Results

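The proteasome genes described here were those whose annotated symbol is Psma, Psmb, Psmc or Psmd followed directly by a number. Probe sets that name exactly 1 gene were used, and each gene was represented by its brightest probe set over all samples. This gave 39 genes of 19938 on the array. The 3 immunoproteasome genes Psmb8, Psmb9 and Psmb10 were set against the rest.

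The samples were livers of C57BL/6J mice 16 weeks old. One diet group had eaten a high fat diet (HFD), with 60% of its energy from fat, for 10 weeks, and the other had eaten normal chow. All mice were kept under 12 h of light and 12 h of dark with free access to food. Livers were taken every 4 h at 6 zeitgeber times (ZT, hours on the light cycle), ZT0, ZT4, ZT8, ZT12, ZT16 and ZT20, with 3 samples for each diet and time, 18 per diet and 36 in all. Each sample was hybridised to 1 whole-transcript Affymetrix array, and values are given as log2(intensity + 16). Differences are HFD minus chow, with the standard error (SE) of the fit. Nothing more is said of the animals behind the numbered samples of a group, so each p-value reflects the spread of these samples. In the fits that spread was pooled over all 36 samples, not taken from the 3 of 1 group.

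The proteasome is the large protease that degrades proteins tagged with ubiquitin. Its 20S core is a barrel of rings, in which the alpha subunits (Psma genes) form the gate and the beta subunits (Psmb genes) form the inner rings that carry the active sites. The 19S particle caps the core, and its ATPases (Psmc genes) unfold the substrate. Most Psmd genes encode its non-ATPase subunits, some of which bind or trim ubiquitin. The constitutive catalytic subunits Psmb5, Psmb6 and Psmb7 can be replaced by Psmb8, Psmb9 and Psmb10, which interferon induces in many cells. The resulting immunoproteasome is best known for making peptides for MHC class I.

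Array medians ran between 75.7 and 95.6 intensity units, and arrays of the same group correlated at 0.980 to 0.995 over the genes tested. Of the 39 genes, 38 passed a filter at the 30th percentile of mean level and entered the test of 13956 genes. The gene left out was Psmb11, the thymus-specific catalytic subunit, with a mean of 6.10 in HFD livers and 6.06 in chow livers. Psma8, a subunit known from testis, passed just above the filter level of 6.11, with means of 6.22 in HFD livers and 6.08 in chow livers. The hepatocyte markers were bright on every array, and their summed intensity was 91147 to 103552 in HFD livers and 90395 to 105553 in chow livers over 11 genes.

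Averaged over the 6 times, Psmb9 and Psmb8 were higher on HFD, 6 genes of the standard proteasome were lower, and 30 of the 38 did not pass the test. The 6 lower genes were Psma4 and Psma7 of the alpha ring, Psmb4 and Psmb6 of the beta ring, and the ATPase genes Psmc3 and Psmc5. The test was limma on all genes, with Benjamini-Hochberg adjusted p under 0.05. By the same rule 21% of all genes were called, 9.8% lower and 11.2% higher on HFD, so the share of proteasome genes called was near that of all genes. Of the 35 genes other than Psmb8 to Psmb10, 27 had a difference below 0, against 42.5% of all genes. Their median difference was -0.04, and the median of all genes was 0.02, a gap of -0.06 that became -0.02 with quantile normalization. With that normalization 9 proteasome genes were lower and 2 higher, and over all genes 1712 were lower and 1455 higher. With each array centred on its median, 10 proteasome genes were lower and 2 higher, and over all genes 1926 were lower and 827 higher, against 1367 and 1570 as deposited.

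**Figure D1:**
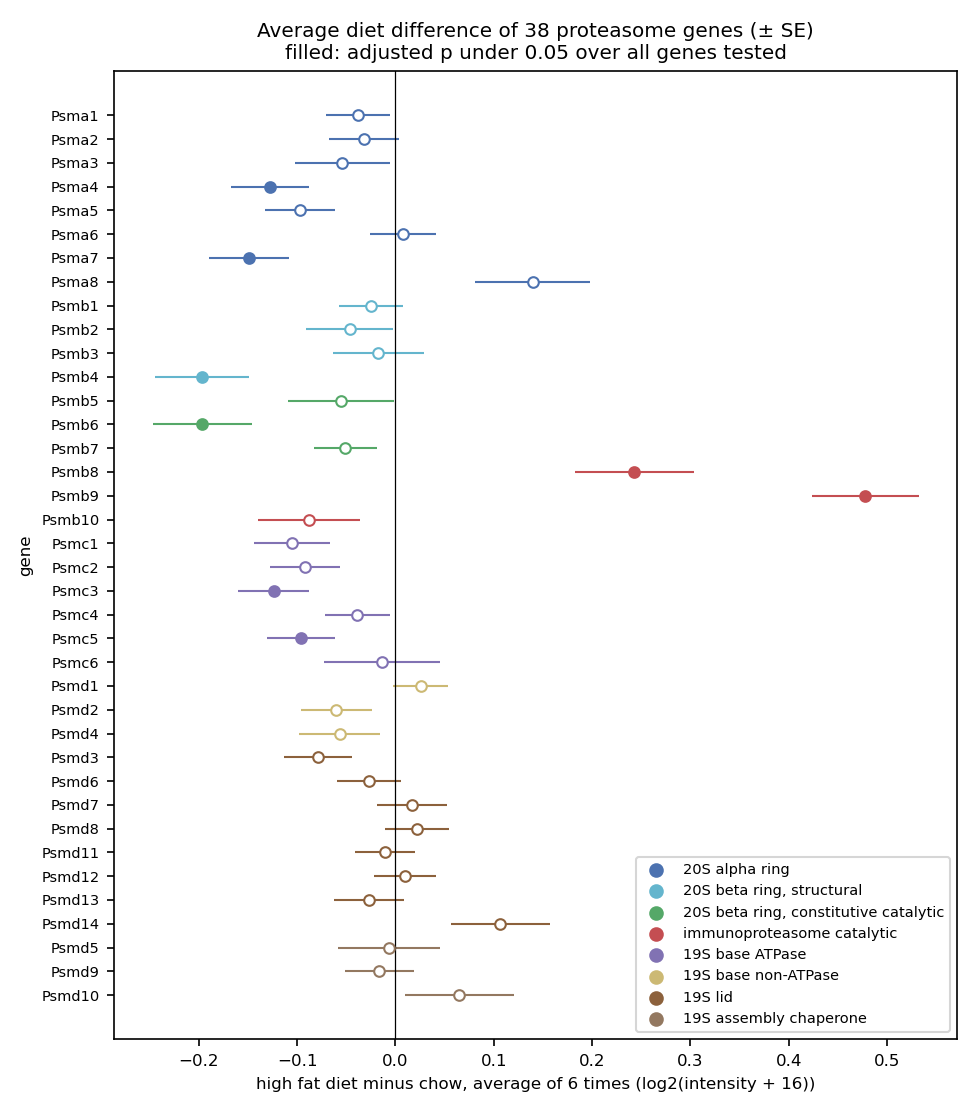
Average HFD minus chow difference of the 38 tested proteasome genes, in log2(intensity + 16), with bars of ± 1 SE; colours give the role of each subunit, and filled points have an adjusted p under 0.05. Psmb9 and Psmb8 lie far to the right at 0.48 and 0.24, and the 6 filled points on the left lie between -0.20 and -0.10.

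Psmb9, Psmb8 and, for contrast, Psmb6 are shown by the 300 bases around their RefSeq start sites (GRCm38.p6, 250 before and 50 after the start), because the first pair rose on HFD and Psmb6, the constitutive counterpart of Psmb9, fell. Psmb9 is on the minus strand at chr17:34187281-34187580, Psmb8 on the plus strand at chr17:34197945-34198244 and Psmb6 on the plus strand at chr11:70525107-70525406. Each sequence reads 5′ to 3′ on the gene's strand, and capitals mark matches, on either strand, to the motifs searched.
Psmb9: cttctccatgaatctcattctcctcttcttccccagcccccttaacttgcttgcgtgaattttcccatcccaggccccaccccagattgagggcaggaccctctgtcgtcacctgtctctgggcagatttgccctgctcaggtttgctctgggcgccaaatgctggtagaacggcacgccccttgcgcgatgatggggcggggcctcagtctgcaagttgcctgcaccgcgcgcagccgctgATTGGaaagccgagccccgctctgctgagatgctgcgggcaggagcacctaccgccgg
Psmb8: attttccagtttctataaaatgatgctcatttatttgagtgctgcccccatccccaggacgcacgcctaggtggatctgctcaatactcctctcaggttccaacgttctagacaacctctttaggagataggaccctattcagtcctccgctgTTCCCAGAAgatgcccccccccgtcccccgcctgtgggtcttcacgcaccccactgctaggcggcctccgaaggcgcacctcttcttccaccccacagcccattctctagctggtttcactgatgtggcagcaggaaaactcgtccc
Psmb6: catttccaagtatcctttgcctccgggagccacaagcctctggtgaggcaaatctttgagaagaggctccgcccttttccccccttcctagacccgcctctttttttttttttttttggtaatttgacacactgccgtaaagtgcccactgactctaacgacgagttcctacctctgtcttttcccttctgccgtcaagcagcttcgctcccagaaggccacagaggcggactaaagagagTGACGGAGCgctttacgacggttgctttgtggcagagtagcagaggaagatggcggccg
The capitals in Psmb9 are a CCAAT box read on the other strand, at position -8 from the start. Those in Psmb8 match the gamma-activated site at position -97, and those in Psmb6 match the antioxidant response element core at position -9. The Psmb9 window shares 275 of its 300 bases with that of Tap1, the peptide transporter gene that is read in the opposite direction.

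Psmb9, which takes the place of Psmb6 in the immunoproteasome, was the most changed of the proteasome genes. In the order ZT0, ZT4, ZT8, ZT12, ZT16 and ZT20, its HFD arrays read 8.52, 8.56 and 8.80, then 8.83, 9.25 and 8.88, then 8.93, 8.95 and 8.83, then 9.15, 8.82 and 8.87, then 8.50, 8.67 and 8.51, and then 8.25, 8.40 and 8.58. Its chow arrays read 8.10, 8.27 and 8.08, then 8.44, 8.39 and 8.58, then 8.44, 8.61 and 8.49, then 8.58, 8.16 and 8.10, then 7.92, 7.97 and 8.45, and then 8.15, 8.07 and 7.89. At 6 of 6 times every HFD array lay above every chow array of that time, a pattern met by 0.265% of all genes. The mean was 8.74 ± 0.26 in HFD livers and 8.26 ± 0.24 in chow livers (SD over times and arrays, n = 18 each). The difference was 0.48 ± 0.05 (SE, limma, adjusted p = 9.4e-08), which is 39.2% higher on the scale of intensity + 16, and Psmb9 ranked 138 of all genes by p.

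Psmb8, which takes the place of Psmb5, also rose. Its HFD arrays read 7.75, 7.71 and 7.92 at ZT0, 7.91, 8.39 and 8.19 at ZT4, 8.43, 8.56 and 7.92 at ZT8, 8.73, 8.15 and 8.04 at ZT12, 8.30, 7.98 and 8.09 at ZT16, and 8.10, 8.22 and 8.14 at ZT20. Its chow arrays read 7.78, 7.80 and 7.81 at ZT0, 7.95, 7.71 and 7.80 at ZT4, 7.81, 7.86 and 7.85 at ZT8, 8.07, 7.83 and 7.85 at ZT12, 7.95, 7.95 and 8.36 at ZT16, and 7.85, 7.98 and 7.94 at ZT20. The diets overlapped at ZT0, ZT4, ZT12 and ZT16, and all HFD arrays lay above the chow arrays at ZT8 and ZT20. The mean was 8.14 ± 0.27 in HFD livers and 7.90 ± 0.14 in chow livers (SD, n = 18 each). The difference was 0.24 ± 0.06 (SE, limma, adjusted p = 0.0038), or 18.3% on the scale of intensity + 16.

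Psmb10, the counterpart of Psmb7, did not pass the test. Over 18 arrays each, it spanned 8.31 to 9.36 with a mean of 8.67 ± 0.26 (SD) in HFD livers, and 8.32 to 9.04 with a mean of 8.76 ± 0.19 in chow livers. Its difference was -0.09 ± 0.05 (SE, limma, adjusted p = 0.25), with a 95% interval of -0.19 to 0.02. Its group means over ZT0 to ZT20 were 8.48, 8.58, 8.89, 8.99, 8.63 and 8.45 in HFD livers and 8.59, 8.59, 8.87, 8.92, 8.94 and 8.63 in chow livers. The diets overlapped at 5 of the 6 times, and at ZT16 all 3 HFD arrays, at 8.60 to 8.66, lay below the chow arrays, at 8.81 to 9.02.

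These are whole livers, so a change in the number of cells of a type and a change in RNA per cell cannot be told apart. Markers of some other cell types were also higher on HFD, and others were not. Of the 21 Kupffer cell and macrophage markers, 18 were tested, with 12 higher and 1 lower on HFD and a median difference of 0.26. From ZT0 to ZT20 the median difference of these markers was 0.67, 0.18, 0.11, 0.48, 0.17 and 0.10. At those times Psmb8 differed by -0.004, 0.34, 0.46, 0.39, 0.04 and 0.23, and Psmb9 by 0.47, 0.52, 0.39, 0.67, 0.45 and 0.37. The summed intensity of the macrophage markers was 4880 to 10790 (median 6659) in HFD livers and 3426 to 8423 (median 5445) in chow livers. Cd14, Gpnmb and Ccr2 lay below the filter. Mpeg1, a macrophage perforin-like gene, differed by 0.57, the Kupffer cell gene Cd5l by 0.56, and Cd9, the 1 that fell, by -0.45 (limma, adjusted p = 5.6e-07, 0.00011 and 4.7e-06). Of 16 T, NK and B cell markers, 8 were tested and 3 were higher (Cd4, Ccl5 and Ptprc), with summed intensity of 969 to 1350 in HFD livers and 872 to 1468 in chow livers. Cd3d, Cd3g, Klrb1c, Ncr1, Gzma, Gzmb, Ms4a1 and Cd79a lay below the filter. Of 10 dendritic cell and MHC class II markers, 7 were tested and none was called by limma, with summed intensity of 1355 to 3780 in HFD livers and 1211 to 3171 in chow livers. Itgax, Flt3 and Siglech lay below the filter. Of 11 sinusoidal endothelial markers 1 was lower (Tie1), of 9 stellate cell markers 3 were higher (Reln, Lrat and Dcn), and of 11 hepatocyte markers 3 were lower (Cps1, Tat and Hnf4a), none of them by more than 0.28 on the log2 scale. In the order given, 72.2%, 37.5%, 0%, 9.09%, 33.3% and 27.3% of the tested markers were called, against 21% of all genes. The part of these cells in the Psmb8 and Psmb9 result was not tested.

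The genes that share their best known inducer or their pathway with the immunoproteasome did not all move with it. Of 18 interferon signalling genes and targets tested, 14 were higher on HFD and none lower, with a median difference of 0.30. That is 77.8%, against 11.2% of all genes called higher, and Mx1 lay below the filter. Ifit1 differed by 0.78, Gbp3 by 0.69 and Usp18 by 0.51 (limma, adjusted p = 1.9e-09, 2.8e-08 and 8.9e-08). Usp18 removes the ubiquitin-like protein Isg15 from other proteins. Of 9 genes of MHC class I presentation, 1 rose and none fell. That is 11.1%, near the 11.2% of all genes called higher. The gene that rose was Tap1, at 8.49 ± 0.27 in HFD livers and 8.18 ± 0.16 in chow livers (SD, n = 18 each), or 0.31 ± 0.06 (SE) apart (limma, adjusted p = 0.00068). Psme1, which encodes a subunit of the interferon-induced activator PA28, fell, with 9.69 ± 0.25 in HFD livers and 9.97 ± 0.14 in chow livers, a difference of -0.28 ± 0.05 (limma, adjusted p = 0.00027). Its partner Psme2 differed by -0.09 and Irf1, a transcription factor of the interferon response, by -0.11 (limma, adjusted p = 0.16 and 0.23).

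**Figure D2:**
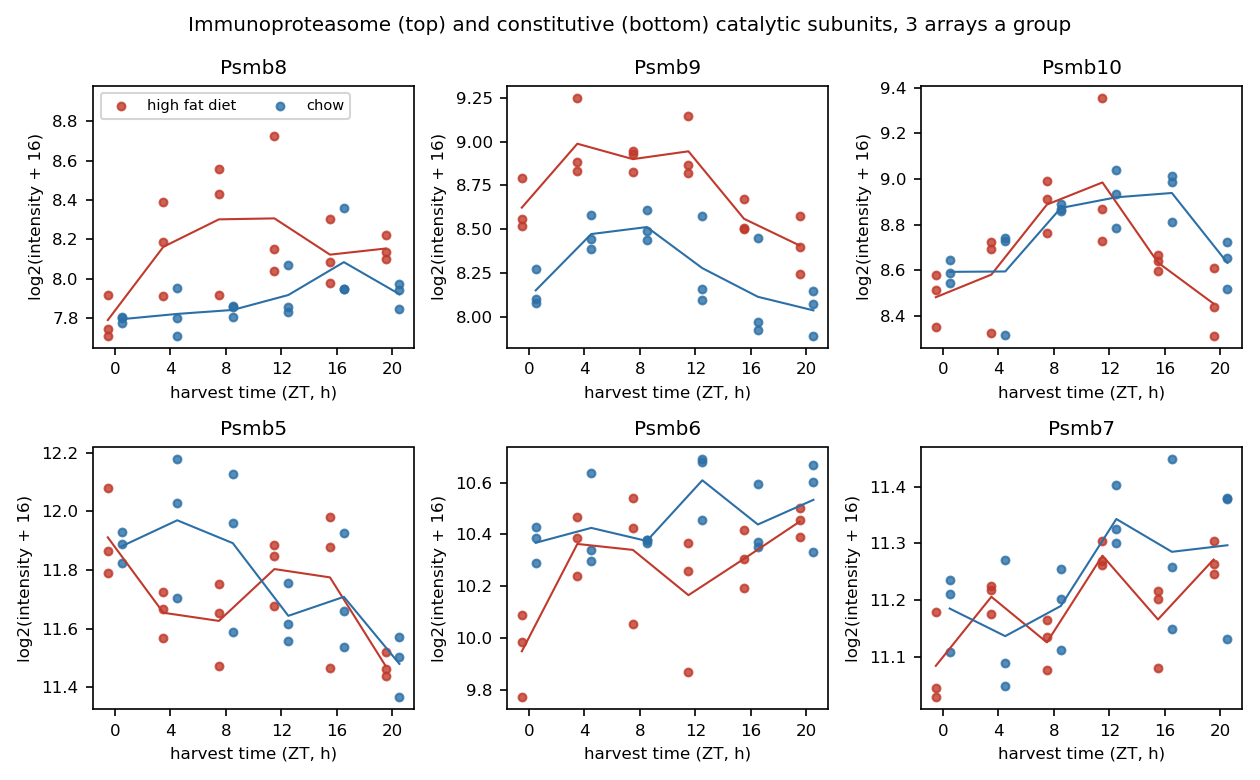
Level of the immunoproteasome subunits (top) and of the constitutive subunits they replace (bottom) against harvest time, in log2(intensity + 16); points are arrays, lines join the means of 3 arrays, and the vertical scale differs between panels. Psmb9 shows HFD points above chow points at each of the 6 times, while Psmb6 shows the reverse at ZT0 and ZT12 and overlap at ZT4, ZT8, ZT16 and ZT20.

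Psmb6 was the constitutive catalytic subunit that fell. At ZT0 it read 9.77, 10.09 and 9.99 in HFD livers, against 10.29, 10.43 and 10.39 in chow livers. At ZT12 it read 9.87, 10.37 and 10.26 in HFD livers, against 10.68, 10.69 and 10.46 in chow livers. The diets did not overlap at these times and overlapped at the other 4. Its group means over ZT0 to ZT20 were 9.95, 10.36, 10.34, 10.16, 10.31 and 10.45 in HFD livers and 10.37, 10.42, 10.37, 10.61, 10.44 and 10.53 in chow livers. Over 18 arrays each the mean was 10.26 ± 0.23 in HFD livers and 10.46 ± 0.14 in chow livers, or -0.20 ± 0.05 (SE) apart (limma, adjusted p = 0.0051).

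Psmb5 and Psmb7 did not pass. Psmb5 averaged 11.71 ± 0.19 in HFD livers and 11.76 ± 0.23 in chow livers (SD, n = 18 each), with a difference of -0.06 ± 0.05 (SE, limma, adjusted p = 0.52) and a 95% interval of -0.17 to 0.05. Psmb7 averaged 11.19 ± 0.09 in HFD livers and 11.24 ± 0.12 in chow livers, with a difference of -0.05 ± 0.03 (SE, limma, adjusted p = 0.28) and an interval of -0.12 to 0.01. From ZT0 to ZT20, the group means of Psmb5 were 11.91, 11.65, 11.63, 11.80, 11.77 and 11.47 in HFD livers and 11.88, 11.97, 11.89, 11.64, 11.71 and 11.48 in chow livers. Those of Psmb7 were 11.08, 11.21, 11.13, 11.28, 11.17 and 11.27 in HFD livers and 11.18, 11.14, 11.19, 11.34, 11.29 and 11.30 in chow livers. The diets overlapped at all 6 times for both genes.

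The balance of each immunosubunit and its counterpart was read within each array as the difference of their log2 levels, centred over the 36 arrays, since the levels of different probe sets cannot be set against each other. Psmb9 minus Psmb6 averaged 0.34 ± 0.36 in HFD livers and -0.34 ± 0.31 in chow livers (SD, n = 18 each), a difference of 0.67. It was positive at 6 of 6 times, the diets did not overlap at 4 of them, and 14 of 18 HFD arrays lay above every chow array. A 2-sided permutation test of diet within each time (100000 resamples) gave p = 1e-05, the smallest it can give, and 3e-05 after adjustment over the 3 pairs. Psmb8 minus Psmb5 averaged 0.15 ± 0.41 in HFD livers and -0.15 ± 0.32 in chow livers, a difference of 0.30 that was positive at 4 of 6 times (permutation p = 0.0107, adjusted 0.0161). Psmb10 minus Psmb7 averaged -0.02 ± 0.26 in HFD livers and 0.02 ± 0.18 in chow livers, a difference of -0.04 (permutation p = 0.519, also after adjustment). The differences between the 3 pairs were not tested.

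**Figure D3:**
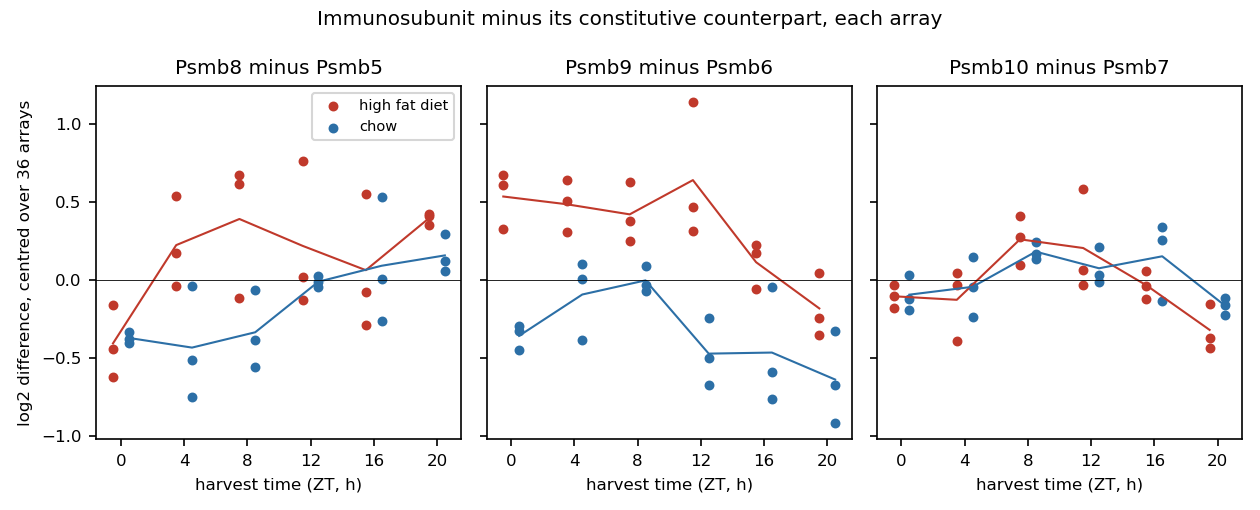
Difference of log2 levels between each immunosubunit and the constitutive subunit it replaces, per array and centred over the 36 arrays, against harvest time; lines join the means of 3 arrays. The Psmb9 minus Psmb6 points of HFD livers lie above those of chow livers at ZT0, ZT4, ZT8 and ZT12 without overlap, and the Psmb10 minus Psmb7 points of the diets overlap at each time.

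In the alpha ring, 2 of 8 genes fell, none rose, and 6 of 8 differences were below 0. Over all genes, 9.8% fell, 11.2% rose and 42.5% were below 0. Psma7 averaged 8.97 ± 0.18 in HFD livers and 9.12 ± 0.13 in chow livers (SD, n = 18 each). It differed by -0.15 ± 0.04 (SE) between diets (limma, adjusted p = 0.0084). At ZT0 its HFD arrays read 8.64, 8.62 and 8.82, against 9.13, 9.09 and 9.02 in chow livers, with no overlap. Psma4 differed by -0.13 ± 0.04 (limma, adjusted p = 0.019), with means of 10.05 ± 0.12 in HFD livers and 10.18 ± 0.12 in chow livers, and was lower in HFD at 6 of 6 times. Psma5 just missed the threshold, at -0.10 (limma, adjusted p = 0.052). Psma1, Psma2, Psma3 and Psma6 lay between -0.05 and 0.01, and Psma8, whose chow mean lay below the filter level, differed by 0.14.

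Among the structural subunits of the beta ring, Psmb4 fell and Psmb1, Psmb2 and Psmb3 did not pass, with differences between -0.05 and -0.02. Psmb4 spanned 10.23 to 11.02 around a median of 10.81 in HFD livers, and 10.69 to 11.10 around a median of 10.92 in chow livers. Its difference was -0.20 ± 0.05 (SE, limma, adjusted p = 0.0030), or -12.7% on the scale of intensity + 16, and all HFD arrays lay below the chow arrays at 3 of 6 times.

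The 6 ATPase genes at the base of the 19S particle all had differences below 0, with a median of -0.09, and 2 of them passed. Over all genes, 42.5% were below 0 and 9.8% were called lower. Psmc3 averaged 9.37 ± 0.17 in HFD livers and 9.49 ± 0.09 in chow livers (SD, n = 18 each). It differed by -0.12 ± 0.04 (SE) between diets (limma, adjusted p = 0.014). Psmc5 averaged 8.45 ± 0.16 in HFD livers and 8.55 ± 0.10 in chow livers, a difference of -0.10 ± 0.03 (limma, adjusted p = 0.045). That call was the weakest, and was lost when any 1 of 24 of the 36 arrays was left out. Psmc1 stood at -0.11 (limma, adjusted p = 0.051), Psmc2 at -0.09, Psmc4 at -0.04 and Psmc6 at -0.01.

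No Psmd gene passed in the diet average. The non-ATPase base genes Psmd1 (the scaffold of the base), Psmd2 and Psmd4 (a ubiquitin receptor) differed by 0.03, -0.06 and -0.06. The 8 lid genes Psmd3, Psmd6, Psmd7, Psmd8, Psmd11, Psmd12, Psmd13 and Psmd14 lay between -0.08 and 0.11, with 4 of 8 below 0. The highest was Psmd14, the lid's deubiquitinase, at 10.35 ± 0.20 in HFD livers and 10.24 ± 0.21 in chow livers (SD, n = 18 each; limma, adjusted p = 0.13). The assembly chaperones Psmd5, Psmd9 and Psmd10, which leave the particle before it is complete, lay between -0.02 and 0.07.

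By harvest time, the lower calls stood at ZT0 and ZT12. Across the 35 genes other than Psmb8 to Psmb10, the median difference was -0.12 at ZT0, -0.01 at ZT4, -0.06 at ZT8, -0.06 at ZT12, -0.06 at ZT16 and 0.06 at ZT20. Of the 35, 26 were below 0 at ZT0, 19 at ZT4, 26 at ZT8, 24 at ZT12, 24 at ZT16 and 9 at ZT20. The shares of all genes below 0 at those times were 42.9%, 45.8%, 48.6%, 49.1%, 43.7% and 48.2%. On each array, the median of the 35 genes, each centred on its own mean, gave the same picture. It was -0.15, -0.12 and -0.06 in HFD livers against 0.01, 0.02 and 0.04 in chow livers at ZT0, and -0.05, -0.04 and -0.02 in HFD livers against 0.02, 0.04 and 0.07 in chow livers at ZT12. The diets overlapped in this median at ZT4, ZT8 and ZT20 and also at ZT16, where HFD arrays gave -0.08, -0.07 and -0.02 and chow arrays -0.06, 0.01 and 0.01.

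At ZT0, 5 proteasome genes were lower on HFD and 1 higher, against 3.75% and 3.37% of all genes. They were Psma7 (-0.38), Psmb6 (-0.42), Psmc5 (-0.31), Psmc3 (-0.30) and Psmc1 (-0.31), with Psmb9 higher (0.47), at limma adjusted p of 0.020 to 0.042. At ZT0 Psmc5 read 8.16, 8.19 and 8.32 in HFD livers and 8.52, 8.57 and 8.51 in chow livers, without overlap. All 3 HFD arrays lay below all 3 chow arrays for 13 of the 38 genes, against 11.5% of all genes. Leaving out 1 array changed these calls more than the differences. Calls over all genes with 1 array left out were not counted. Without chow ZT0 replicate 3 or HFD ZT0 replicate 1 none remained in limma, without chow ZT0 replicate 2 or HFD ZT0 replicate 2 there was 1, and without chow ZT0 replicate 1 there were 3. When each ZT0 array was left out in turn, Psma7 stayed between -0.44 and -0.35, Psmb6 between -0.49 and -0.33, and Psmb9 between 0.39 and 0.53. With arrays centred on their medians, 15 proteasome genes were lower and none higher at ZT0. Over all genes, centring gave 1611 lower and 195 higher at ZT0, against 523 and 470 as deposited. Centring also moved the median of all genes there to -0.10, against 0.03 as deposited. Relative to the median of all genes, which centring cannot change, the 35 genes had a median of -0.15 as deposited and of -0.08 with quantile normalization.

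At ZT12, Psmb4 and Psmb6 were lower on HFD and Psmb9 higher, against 2.97% and 2.47% of all genes. Psmb4 read 10.36, 10.82 and 10.63 in HFD livers and 11.04, 11.06 and 11.00 in chow livers, a difference of -0.43 ± 0.12 (SE, limma, adjusted p = 0.026). Psmb6 differed by -0.44 ± 0.12 (adjusted p = 0.030) and Psmb9 by 0.67 ± 0.13 (adjusted p = 0.0022). For 11 of the 38 genes all HFD arrays lay below the chow arrays, against 13% of all genes. Without chow ZT12 replicate 1 or replicate 2 there was 1 call, while Psmb4 stayed between -0.54 and -0.31 and Psmb6 between -0.55 and -0.30 without any 1 of the ZT12 arrays. The count was 6 without chow ZT4 replicate 2 and 5 without chow ZT16 replicate 3. For these fits, too, calls over all genes were not counted.

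At ZT4 Psmb9 was the single gene called (0.52 ± 0.13, limma, adjusted p = 0.022), against 3.69% of all genes. That call was lost without chow ZT4 replicate 1, chow ZT4 replicate 2 or HFD ZT4 replicate 2, and with arrays centred on their medians, while the difference stayed between 0.39 and 0.60 without any 1 of the ZT4 arrays. At ZT8, ZT16 and ZT20 limma called none of the 38, against 0.774%, 2.22% and 2.04% of all genes. At an unadjusted p under 0.05, 4 of the 38 passed at each of those times, against 9.41%, 13.2% and 13.5% of all genes. All HFD arrays lay below the chow arrays for 1 of the 38 genes at ZT4, 2 at ZT8, 3 at ZT16 and 0 at ZT20, against 9.95%, 7.39%, 8.32% and 6.52% of all genes. They lay above for 3 genes at ZT0, 2 at ZT4, 2 at ZT8, 3 at ZT12, 1 at ZT16 and 5 at ZT20, against 14.9%, 11.6%, 7.08%, 11.7%, 9.64% and 8.99% of all genes. The wholly separated genes lay mostly below at ZT0 and ZT12 and above at ZT20. Leaving out ZT0 and ZT12, chosen because the lower calls stood there, kept the differences of the 6 lower genes below 0, at -0.11 to -0.03. Psma4 then differed by -0.11 and Psmb4 by -0.10, and none of the 6 passed limma (adjusted p of 0.17 to 0.75). There was 1 gene called lower without ZT0 alone and 2 without ZT12 alone. Calls over all genes with fewer times are not given here. These counts therefore cannot be set apart from a change in those calls.

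**Figure D4:**
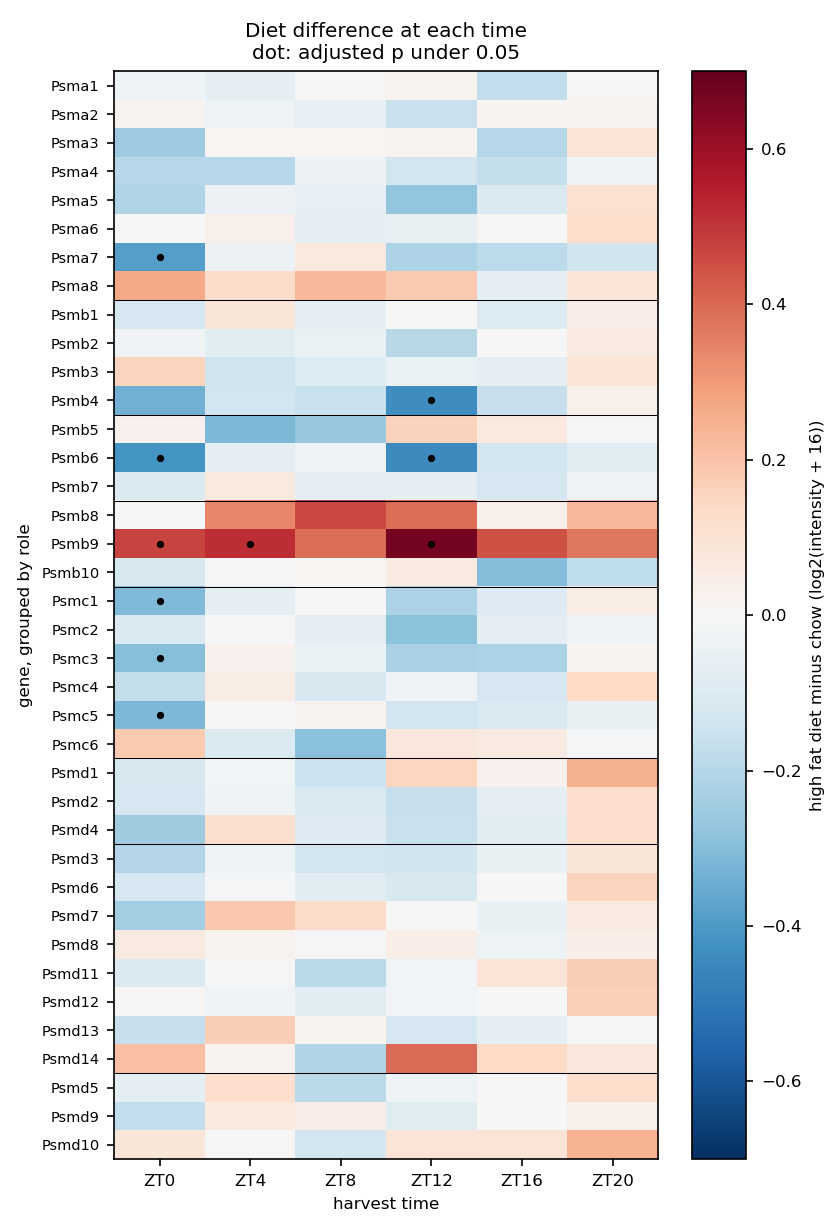
HFD minus chow difference of the 38 tested genes at each harvest time, in log2(intensity + 16), as a colour scale with red for higher on HFD and blue for lower; lines divide the roles and dots mark an adjusted p under 0.05. The row of Psmb9 is red at each time, and most other dots lie in the ZT0 column.

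Whether the diet difference itself varied with time was tested with the interaction of diet and time. None of the 38 genes passed in limma, against 0.631% of all genes, and 5 had an unadjusted p under 0.05, against 13.4% of all genes. The smallest was that of Psmd1 (unadjusted p = 0.0023, adjusted p = 0.12). Psmd1 read 10.64, 10.66 and 10.67 in HFD livers and 10.75, 10.78 and 10.78 in chow livers at ZT0. At ZT20 it read 10.83, 10.77 and 10.75 in HFD livers and 10.58, 10.64 and 10.38 in chow livers. The diets did not overlap at either time, and lay in opposite order.

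A 24 h cosine wave was fitted to each gene and diet to find daily rhythms. In HFD livers 4 of the 38 genes were rhythmic (Psmd11, Psmb9, Psmb10 and Psma1), against 11% of all genes. In chow livers 9 were rhythmic (Psmd11, Psmd1, Psmb9, Psmb10, Psmd2, Psmd3, Psmd7, Psmb2 and Psmd12), against 20.6% of all genes. Psmd11, Psmb9 and Psmb10 were rhythmic on both diets, against 8.2% of all genes. Without HFD ZT20 replicate 2 the HFD count was 7, and calls over all genes were not counted there. The amplitude, taken as mean to peak, had a median over the 38 genes of 0.07 in HFD livers and 0.08 in chow livers, and was larger on chow for 26 of them, against 60.6% of all genes. All 14 core clock genes were rhythmic on both diets, so the arrays followed the daily cycle.

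Psmb9 was highest in the light phase. Its amplitude was 0.29 ± 0.05 (SE) with a peak at ZT7.59 ± 0.70 in HFD livers, and 0.25 ± 0.05 with a peak at ZT6.96 ± 0.82 in chow livers (limma, adjusted p = 0.00072 and 0.0026). Psmb10 had an amplitude of 0.27 ± 0.05 with a peak at ZT10.4 ± 0.70 in HFD livers, and 0.21 ± 0.05 with a peak at ZT12.5 ± 0.92 in chow livers (limma, adjusted p = 0.00075 and 0.0077). Psmb8 did not pass on either diet (limma, adjusted p = 0.078 in HFD livers and 0.32 in chow livers).

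Psmd11, a lid subunit, ran in another phase, with the lowest group mean at ZT12 on both diets. At ZT12 it read 9.93, 10.08 and 10.17 in HFD livers and 10.04, 10.10 and 10.10 in chow livers. At ZT0 it read 10.50, 10.28 and 10.26 in HFD livers and 10.45, 10.43 and 10.45 in chow livers. The ZT0 arrays lay above the ZT12 arrays on each diet. The amplitude was 0.19 ± 0.03 (SE) with a peak at ZT22.6 ± 0.62 in HFD livers, and 0.18 ± 0.03 with a peak at ZT1.46 ± 0.68 in chow livers (limma, adjusted p = 0.00014 and 0.00028).

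Psmd1 was rhythmic in chow livers, with an amplitude of 0.06 in HFD livers and 0.18 in chow livers (limma, adjusted p = 0.57 and 0.00055). The remaining chow rhythms had amplitudes of 0.10 to 0.15. The test of the difference between the waves of both diets called none of the 38 genes by limma, against 0.0287% of all genes. At an unadjusted p under 0.05, 2 genes passed it (Psmd11 and Psmd1), against 8.32% of all genes. A call on 1 diet therefore does not show that these genes differ in rhythm between diets.

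**Figure D5:**
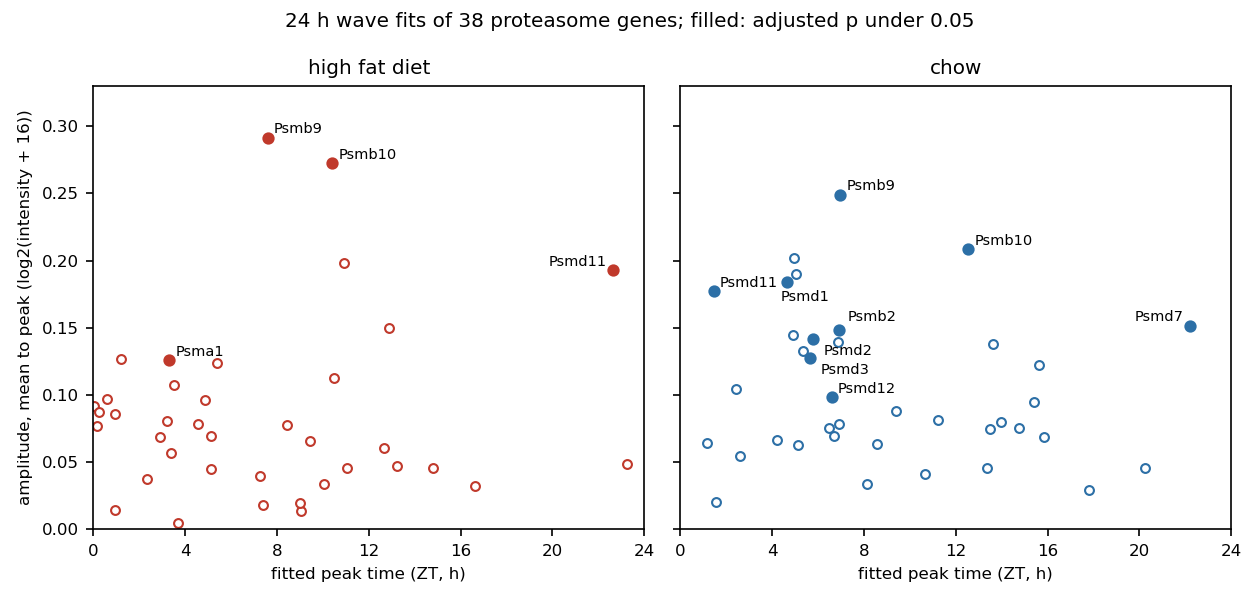
Amplitude (mean to peak, log2(intensity + 16)) against fitted peak time of the 24 h wave for the 38 genes in HFD livers (left) and chow livers (right); filled and named points have an adjusted p under 0.05. Psmb9 and Psmb10 have the largest amplitudes in both panels, and Psmd11 peaks near ZT0 on both diets.

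A test for any difference among the 6 times, with no shape assumed, called 16 of the 38 genes in HFD livers and 7 in chow livers, against 16.8% and 21% of all genes. In HFD livers the called genes included 5 ATPase genes (Psmc1 to Psmc5), Psma5, Psma7, Psmb4, Psmb6, Psmd1, Psmd4, Psmd7 and Psmd9 beside Psmb9, Psmb10 and Psmd11. The median of the 35 genes in HFD livers was high at ZT4 (0.06, 0.06 and 0.10 on the 3 arrays) and at ZT20 (0.02, 0.03 and 0.12), and low at ZT0 and ZT16, an order with more than 1 peak. Psmd4, the ubiquitin receptor, had its HFD group means highest at ZT20 and lowest at ZT16, with a range of 0.44 (limma, adjusted p = 0.0023). The count differs from that of the wave fit, and the difference between diets in this test was the interaction given above.

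Of 16 genes for factors that assemble the proteasome or regulate its genes, 2 rose, 2 fell and 12 did not pass, or 25% called against 21% of all genes. Nfe2l2 and Nfe2l1, transcription factors known to activate proteasome genes under stress, rose by 0.38 ± 0.06 and 0.18 ± 0.03 (SE, limma, adjusted p = 1.8e-05 and 0.00029). The assembly chaperone Psmg1 and the proteasome-associated thioredoxin Txnl1 differed by -0.16 and -0.13 (limma, adjusted p = 0.012 and 0.0040). Of 5 genes for proteasome activators and inhibitors, 1 fell (Psme1, given above), 1 rose and 3 did not pass, or 40% called. The gene that rose was Psmf1, an inhibitor of the core, by 0.14 ± 0.04 (SE, limma, adjusted p = 0.011). Psme2, Psme3 and Psme4 did not pass. Of 20 ubiquitin and delivery genes, 3 fell and 2 rose, or 25% called. Ubqln2, a shuttle factor, differed by -0.19, the E1 enzyme gene Uba6 by 0.27 and the E3 subunit gene Skp1 by 0.20 (limma, adjusted p = 7.3e-05, 0.00070 and 0.0085).

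Start-site windows from RefSeq matched 32 of the 39 genes, and no motif searched was found in both Psmb8 and Psmb9. The letters searched, on both strands, were GAAA followed after 2 free bases by another GAAA for the interferon-stimulated response element core, TTCNNNGAA for the gamma-activated site, GGGA followed after 4 free bases by CC for NF-kB, TGACNNNGC for the antioxidant response element core, CACGTG for the E-box, TTATGNAA for the D-box and CCAAT. They were found in 3, 2, 8, 5, 3, 0 and 13 of the 32 genes, in that order, and in 3.44%, 8.3%, 20.7%, 12.4%, 7.15%, 3.38% and 37.4% of 32851 promoter windows. Psmb3, Psmd4 and Psmd9 held the interferon-stimulated response element core, and Psmb8, Psmb9 and Psmb10 did not. Psmb8 and Psmd2 held the gamma-activated site. Psmb5, Psmb6, Psmc6, Psmd12 and Psmd9 held the antioxidant response element core. A match describes these letters in these windows and marks no binding.

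For 5 genes (Psma3, Psma5, Psmb3, Psmc1 and Psmd2) the array held more than 1 probe set, and the diet difference had the same sign in each of them. In Psma3 the 3 probe sets differed by -0.05, -0.06 and -0.02, and in Psma5 the pair differed by -0.10 and -0.15.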

How the data were processed

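Liver RNA of 36 samples was measured on 1 Affymetrix whole-transcript array each, and samples were grouped by the diet and harvest time in their labels. The deposited values are linear probe set intensities that the authors made with Affymetrix Expression Console 1.1.1 and PLIER 2.0, per the submitters' processing notes. How background was corrected and how arrays were normalized is not given in the sources used here. Intensities were used without further scaling as log2(intensity + 16), which understates changes of dim probe sets. The number of arrays limits the precision.

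Of 35556 probe sets, the platform annotation gave 1 gene for 21789, several for 1621 and none for 12146, which are unnamed here. Symbols were updated by entrez identifier for 99.6%. The brightest probe set stood for each gene, and genes above the 30th percentile of mean level were tested.

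limma 3.58.1 (R 4.3.3) was fitted to the 12 group means over 36 arrays (24 residual degrees of freedom), and a second fit had a mean and a 24 h cosine and sine per diet. P-values were adjusted by Benjamini-Hochberg over all 13956 genes, with a threshold of 0.05, and the fits were tested on simulated data. Within-array differences of subunit pairs were tested by permuting diet within time. All 39 proteasome genes were accounted for. Array values or group means were printed for the catalytic subunits, and means, with array values at some times, for the called genes with the smallest p. The other gene lists covered activators, assembly and regulation, ubiquitin, MHC class I, interferon, the core clock and cell type markers. The members and lists were chosen with earlier results of these data known.

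Alternatives were quantile normalization, median centring, other filters and offsets, the mean of probe sets, a replicate block, array weights, a trended robust prior, a stricter threshold, an F test among times, and leaving out each array. Leaving out times or the 4 arrays of lowest weight was added after seeing the data.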

Additional observations from a re-analysis of the deposited data

How the results depend on the processing

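Psmb9 and Psmb8 stayed higher on HFD under every alternative run, with differences of 0.42 to 0.50 and 0.20 to 0.29 (largest adjusted p 2.9e-05 and 0.026), and 0.46 to 0.51 and 0.21 to 0.27 when single arrays were left out. The 3 pair differences kept their side of the threshold and ranged over 0.63 to 0.71 (Psmb9 minus Psmb6), 0.25 to 0.34 (Psmb8 minus Psmb5, adjusted p up to 0.043) and -0.07 to -0.02 (Psmb10 minus Psmb7) without 1 array. No direction of a named gene, pair or proteasome median reversed, while the median of all genes (0.02) was -0.01 with quantile normalization and -0.02 with centring, and calls over all genes were 1712 lower and 1455 higher with quantile normalization, against 1367 and 1570 as deposited. For changes in counts below, the cause was not tested, also where fewer times or arrays were used. The 6 lower genes of the diet average became 9 with quantile normalization, 10 with median centring and 10 with array weights. At an adjusted p under 0.01 there were 3. There was 1 without ZT0, 2 without ZT12 and 0 without both, times chosen because they held the calls. Without those times, in that order, Psmb4 was -0.17, -0.15 and -0.10, and Psma4 -0.11, -0.13 and -0.11. With array weights 2 genes were called at ZT4, 8 at ZT8, 6 at ZT12, 2 at ZT16 and 1 at ZT20. Array weights also gave 10 in diet by time, 8 for rhythm on HFD, 14 for rhythm on chow and 1 for the rhythm difference. Calls over all genes were not counted for array weights, filters, offsets, the robust prior or arrays left out. They are not given for fewer times or the stricter threshold. Counts under those settings therefore cannot be set apart from a change in calls over all genes. Median centring gave 15 at ZT0, 0 at ZT4, 5 at ZT12 and 4 chow rhythms. Over all genes it gave 1611 lower and 195 higher at ZT0, against 523 and 470 as deposited. The stricter threshold gave 0 at ZT0, 0 at ZT4, 1 at ZT12 and 4 chow rhythms. The ZT12 count was 6 with the 50th percentile filter, 6 with an offset of 64, 5 with a trended robust prior and 6 without the 4 arrays of lowest weight, which left 0 at ZT4. ZT20 gave 1 with quantile normalization, the stricter filter, the offset of 64 or the robust prior. The F test among times gave 16 on HFD, and under it Psmb10 lost its call on chow (adjusted p = 0.057). The median of the 35 genes (-0.038 as reported) was -0.026 with quantile normalization, -0.078 with centring, -0.054 without the 4 arrays, -0.032 without ZT12 and -0.016 without ZT0 and ZT12. Without single arrays the counts ran over 5 to 9 lower and 2 to 3 higher genes, 0 to 7 at ZT0, 0 to 1 at ZT4, ZT8, ZT16 and ZT20, 1 to 6 at ZT12, 3 to 7 HFD rhythms and 6 to 12 chow rhythms, with the median at -0.047 to -0.029.

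No clear pairing by replicate number was seen, though these values cannot show that the samples were unpaired. Same-numbered arrays of both diets correlated at -0.41 to 0.35 (median 0.02) in their deviations. Of 18 pairs, 5 were over 0.1 and 6 correlated best with their own number. With the replicate number as a block, 6 genes were lower and 2 higher in the diet average, 7 were called at ZT0 and 4 at ZT12, and Psmc5 missed the threshold (adjusted p = 0.052). The block changed no other call of the named genes. Probe sets near the filter, such as those of Psma8 and Psmb11, cannot show small changes, and RNA levels say nothing of assembled proteasomes or their activity.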
